A study of Mus musculus with 7 samples.

Results

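The keratin genes are described here across 7 bulk mouse melanoma tumours grown under the skin. Every gene whose symbol is Krt followed by digits, with or without a final letter, was taken, which gave 36 of the 28233 gene symbols in the expression table. They were divided into 12 epidermal keratins, 6 hair shaft keratins, 3 keratins of the inner root sheath of the hair follicle, 6 simple-epithelial keratins and 9 others. Krt2 and Krt9 were not analysed here.

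All tumours were subcutaneous implants of B16mhgp100, a melanoma line of the mouse B16 family that the sample descriptions spell B16mghp100, in C57BL/6 mice. Tumours Cr1l 1 to Cr1l 4 were made with cells over-expressing Cr1l, the gene of the mouse complement inhibitor Crry, and tumours Vec 5 to Vec 7 with vector cells, giving 4 and 3 tumours. Every tumour of both groups was exposed to anti-PD-1, which blocks an inhibitory receptor of T cells: treatment began on day 10, 4 doses of 200 µg were given at 2 per week, and harvest followed 1 day after the last of them. The samples include no tumour that was spared the antibody. An extra number stands in the titles of Vec 6 and Vec 7 but not in that of Vec 5, and neither its meaning nor whether the lines were single clones is stated in the labels. The labels number the tumours and do not say that each came from its own mouse, so the p-values measure the spread between these samples.

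Keratins are the intermediate filament proteins of epithelial cells, and a type I and a type II keratin are needed to build each filament. In skin, basal keratinocytes use Krt5 with Krt14, and the cells above them switch to Krt1 with Krt10. Krt6a, Krt6b, Krt16 and Krt17 belong to hair follicles, glands and wounded epidermis, the hair keratins build the hair shaft, and Krt8 with Krt18 is the pair of simple epithelia such as gut and gland ducts. Melanocytic and mesenchymal cells build their filaments mainly from vimentin.

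The values are TPM, relative transcript abundances within a tumour, scaled by transcript length. TPM sums were 993520 to 996031 per tumour and 13634 to 15352 genes reached 1 TPM. Read numbers are not stated in the labels, so a gene listed at 0 has no known detection limit. Levels of Cr1l were 76.37, 78.56, 77.91 and 83.57 TPM in the Cr1l tumours, against 52.41, 46.29 and 54.94 TPM in the Vec tumours, with no overlap. Of all genes tested, 9.29% were likewise higher in every Cr1l tumour than in every Vec tumour. By limma the log2 difference of Cr1l was 0.62 (SE 0.11, adjusted p = 0.119), so Cr1l itself was not called. In the authors' deposited DESeq2 table its log2 fold change is 0.57 (SE 0.15, adjusted p = 0.00636). Melanoma identity genes, among them Pmel, Dct, Tyrp1 and Mlana, were abundant in all tumours, with a summed level of 10541.77 to 23356.93 TPM in Cr1l tumours and 15200.32 to 23470.23 TPM in Vec tumours.

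Keratin RNA was concentrated in 1 tumour. All 12 epidermal keratins had their highest level in Vec 6, where together they reached 1263.82 TPM, or 0.127% of all TPM. Cr1l 3 and Vec 5 came next, with 82.56 and 71.19 TPM, then Vec 7 with 9.69 TPM, and Cr1l 1, Cr1l 2 and Cr1l 4 were lowest with 0.98, 0.41 and 2.10 TPM. The groups overlapped, since Cr1l 3 stood above Vec 5 and Vec 7. Of all 14954 genes tested, 9.35% had their highest level in Vec 6. Of the 36 keratins, 19 reached 1 TPM in at least 1 tumour, and the other 17 stayed at or below 0.82 TPM in every tumour. In bulk RNA, fewer cells of a type and less keratin RNA per cell cannot be told apart.

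**Figure D1:**
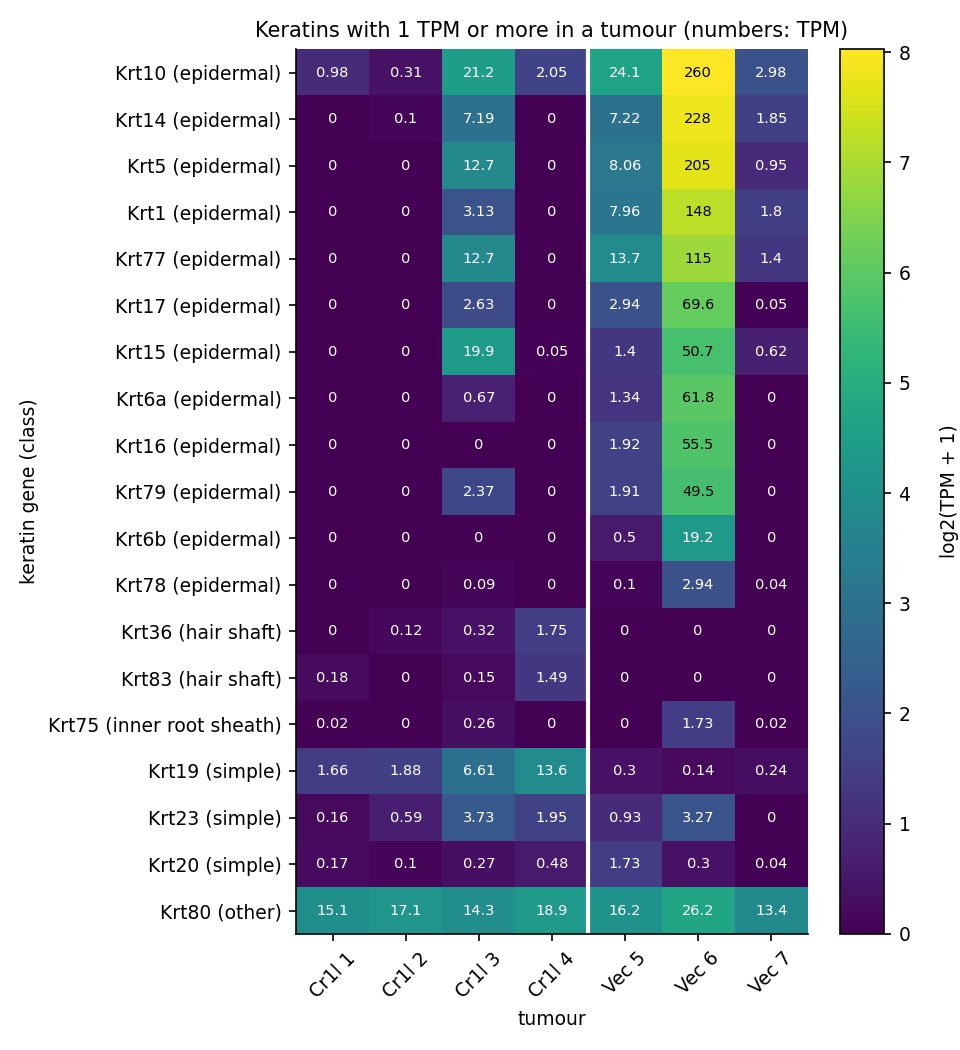
TPM of the 19 keratins that reached 1 TPM in a tumour, with genes down the page by class, the 4 Cr1l tumours on the left and the 3 Vec tumours on the right. The numbers are TPM and the colour is log2(TPM + 1). The epidermal rows are brightest in Vec 6, where Krt10 stood at 259.77 TPM, while Krt80 is of similar brightness in every tumour.

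The basal pair was at or near 0 in 3 of the 4 Cr1l tumours. Krt14, the type I keratin of basal keratinocytes, was 0, 0.10, 7.19 and 0 TPM in Cr1l 1 to Cr1l 4, against 7.22, 227.74 and 1.85 TPM in Vec 5 to Vec 7. Krt5, its type II partner, was 0, 0, 12.71 and 0 TPM in the Cr1l tumours, against 8.06, 204.78 and 0.95 TPM in the Vec tumours. Cr1l 3 lay among or above the Vec tumours other than Vec 6, so that the groups overlapped for both genes. The ratio of Krt5 to Krt14, both scaled by length, was 1.77 in Cr1l 3, against 1.12 in Vec 5 and 0.899 in Vec 6, which places the pair at similar levels in each tumour where both reached 1 TPM. Krt15, a type I keratin of basal cells and of the follicle bulge, was 0, 0, 19.91 and 0.05 TPM in the Cr1l tumours, against 1.40, 50.66 and 0.62 TPM in the Vec tumours. Unlike Krt14, it was many times higher in Cr1l 3 than in Vec 5, and the ratio of Krt15 to Krt14 was 2.77 in Cr1l 3, against 0.194 in Vec 5 and 0.222 in Vec 6.

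The suprabasal keratins were also highest in Vec 6, and Vec 5 stood above Cr1l 3 in each. Krt10, the type I keratin of differentiating epidermis, had the highest mean of all keratins, at 0.98, 0.31, 21.20 and 2.05 TPM in the Cr1l tumours, against 24.10, 259.77 and 2.98 TPM in the Vec tumours. It was the epidermal keratin detected in all 7 tumours, and in Cr1l 1 and Cr1l 4 it made up 100% and 97.6% of the epidermal keratin TPM. Krt1, its type II partner, was 0, 0, 3.13 and 0 TPM in the Cr1l tumours, against 7.96, 147.58 and 1.80 TPM in the Vec tumours. Krt1 stood below Krt10 wherever both reached 1 TPM, with a ratio of 0.148 in Cr1l 3, against 0.33 in Vec 5, 0.568 in Vec 6 and 0.604 in Vec 7. Krt77, a further type II keratin of the skin, was 0, 0, 12.66 and 0 TPM in the Cr1l tumours, against 13.74, 114.56 and 1.40 TPM in the Vec tumours. In Cr1l 3 and Vec 5 Krt77 exceeded Krt1, whereas in Vec 6 and Vec 7 Krt1 was the higher of the pair. Krt78, a type II keratin of stratified epithelia, was low everywhere, with 2.94 TPM in Vec 6 and at most 0.10 TPM in the other tumours.

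The 100 bases before the annotated start of Krt10, Krt77 and Krt5 are shown because these are the most abundant suprabasal keratins of Cr1l 3 and the leading type II basal keratin, and their RNA moved together across the tumours. The sequences are from RefSeq on GRCm38.p6, which is not the authors' build mm39, and all 3 lie on the minus strand, at chr11:99389365-99389464, chr15:101869706-101869805 and chr15:101712906-101713005. Capitals mark matches to TATAAA or TATATA, searched on both strands of the 250 bases before the start.
Krt10: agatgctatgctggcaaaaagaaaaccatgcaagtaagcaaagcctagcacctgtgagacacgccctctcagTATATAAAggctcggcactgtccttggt
Krt77: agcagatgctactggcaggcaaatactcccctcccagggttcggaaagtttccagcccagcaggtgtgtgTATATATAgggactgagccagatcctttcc
Krt5: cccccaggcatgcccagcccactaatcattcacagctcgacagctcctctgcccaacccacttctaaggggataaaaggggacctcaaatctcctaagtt
In Krt10 a TATATA at -28 overlaps a TATAAA at -26, counted from the start, and in Krt77 overlapping TATATA matches begin at -30 and -28. TATATA reads the same on both strands. Krt5 has neither string of letters in its 250 bases. Among 32851 mouse promoters of the same length, 12.4% hold TATAAA, 5.25% hold TATATA and 15.6% hold either.

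The keratins of activated and follicular epithelium were far higher in Vec 6 than in any other tumour. Krt17, a type I keratin of follicles and wounds, was 0, 0, 2.63 and 0 TPM in the Cr1l tumours, against 2.94, 69.64 and 0.05 TPM in the Vec tumours. Krt16, a type I keratin of wounded epidermis, was listed at 0 in all 4 Cr1l tumours, against 1.92, 55.55 and 0 TPM in the Vec tumours. Krt6a, the type II partner of Krt16, was 0, 0, 0.67 and 0 TPM in the Cr1l tumours, against 1.34, 61.83 and 0 TPM in the Vec tumours. Cr1l 3 thus had less Krt6a and Krt16 than Vec 5, although its epidermal keratin sum was the higher of these tumours. Krt6b, the close copy of Krt6a, was listed at 0 in all 4 Cr1l tumours, against 0.50, 19.23 and 0 TPM in the Vec tumours. Krt79, a type II keratin of sebaceous ducts and the upper follicle, was 0, 0, 2.37 and 0 TPM in the Cr1l tumours, against 1.91, 49.54 and 0 TPM in the Vec tumours. Some of these genes are near-identical over long stretches, and in GENCODE M21 transcripts 50.3% of the 31-base windows of Krt6b also occur in Krt6a, 45.9% of those of Krt6a occur in Krt6b, and 51.9% of those of Krt16 occur in another gene. The split of reads among Krt6a, Krt6b, Krt16 and, at 28.2% shared windows, Krt14 is therefore uncertain, while Krt10, Krt1, Krt77, Krt79 and Krt19 share under 1%. The libraries did not keep strand, and in the same annotation an opposite-strand gene covers 19.5% of the exon bases of Krt6a, 6.91% of Krt10 and 5.87% of Krt5.

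The make-up of the epidermal keratin RNA differed between the tumours that had it. Krt10 was 25.7% of the epidermal keratin TPM in Cr1l 3, against 33.9% in Vec 5, 20.6% in Vec 6 and 30.8% in Vec 7. Krt15 took 24.1% in Cr1l 3, against 1.97%, 4.01% and 6.4% in Vec 5, Vec 6 and Vec 7. Krt14 took 8.71% in Cr1l 3, against 10.1%, 18% and 19.1% in the Vec tumours. Cr1l 3 therefore stood apart by its share of Krt15. Krt1 took 3.79% in Cr1l 3, against 11.2%, 11.7% and 18.6% in Vec 5, Vec 6 and Vec 7. The shares of Vec 7 are parts of a sum of only 9.69 TPM. These shares are of single tumours and were not tested. Vec 6 exceeded Vec 5 by 8.34-fold to 46.1-fold over the 10 epidermal keratins that reached 1 TPM in both, and Cr1l 3 by 2.54-fold to 47.2-fold over 8.

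**Figure D2:**
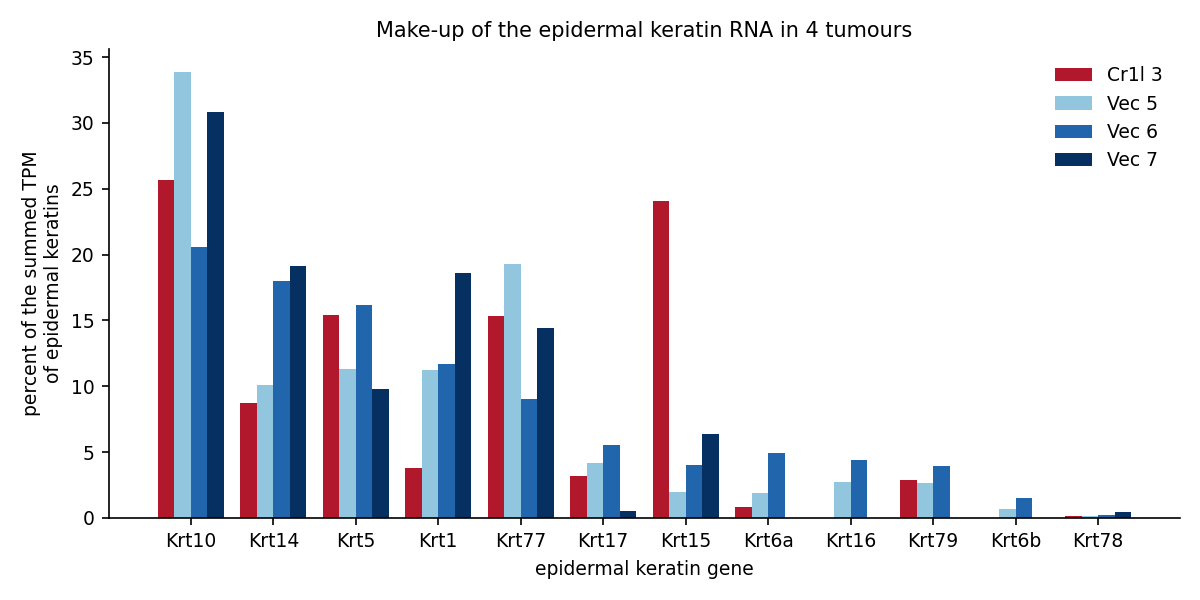
Share of each of the 12 epidermal keratins in the summed epidermal keratin TPM of a tumour, in percent, for Cr1l 3 and the 3 Vec tumours; the other Cr1l tumours had sums of at most 2.10 TPM and are left out. The Krt15 bar of Cr1l 3, at 24.1%, stands far above those of the Vec tumours, which are at most 6.4%.

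The sum of the hair keratins did not rank the tumours as that of the epidermal ones did. The 9 hair shaft and inner root sheath keratins summed to 0.65, 0.25, 1.11 and 3.33 TPM in the Cr1l tumours, against 0.20, 2.71 and 0.36 TPM in the Vec tumours. Other hair keratins, among them Krt35, Krt71 and Krt85, were not analysed here, so the sum covers only a part of the class. The highest sum was in Cr1l 4, a tumour with 2.10 TPM of epidermal keratins. It came from Krt36, a type I hair keratin, at 0, 0.12, 0.32 and 1.75 TPM in the Cr1l tumours, against 0 in all 3 Vec tumours, and from Krt83, a type II hair keratin, at 0.18, 0, 0.15 and 1.49 TPM in the Cr1l tumours, likewise against 0 in all 3 Vec tumours. Both thus peaked in Cr1l 4, with Cr1l 1 or Cr1l 2 at 0, so the groups touched at 0 for each. Of the 31-base windows of Krt83, 29.9% also occur in Krt86, a hair keratin not analysed here. Krt75, a keratin of the companion layer of the follicle, was 0.02, 0, 0.26 and 0 TPM in the Cr1l tumours, against 0, 1.73 and 0.02 TPM in the Vec tumours. Of the 9 hair keratins 4 were highest in Vec 6, namely Krt75, Krt87 at 0.76 TPM, Krt32 at 0.17 TPM and Krt28 at 0.05 TPM. Of all genes tested 9.35% were highest there, but those genes average 1 TPM or more, so the shares are of unlike sets. No hair keratin passed the filter for testing, a mean of 1 TPM over the 7 tumours. Other hair shaft and follicle genes, led by the transcription factor Sox9, summed to 3.70 to 5.95 TPM in the Cr1l tumours and 3.50 to 7.58 TPM in the Vec tumours, and the 7 keratin-associated protein genes of the table to at most 0.38 TPM in Cr1l tumours and 1.58 TPM in Vec tumours.

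Simple-epithelial keratins were low, and the pair that defines simple epithelium was close to 0. Krt8 was 0, 0.10, 0.03 and 0.09 TPM in the Cr1l tumours, against 0, 0.29 and 0 TPM in the Vec tumours. Krt18 was 0, 0, 0.34 and 0.19 TPM in the Cr1l tumours, against 0.07, 0.16 and 0 TPM in the Vec tumours. Neither pattern separated the groups, and Krt7, a type II keratin of ducts, was at most 0.40 TPM in any tumour. Krt20, a type I keratin of gut epithelium and Merkel cells, was 0.17, 0.10, 0.27 and 0.48 TPM in the Cr1l tumours, against 1.73, 0.30 and 0.04 TPM in the Vec tumours, with its highest level in Vec 5. Krt23, a type I keratin, was 0.16, 0.59, 3.73 and 1.95 TPM in the Cr1l tumours, against 0.93, 3.27 and 0 TPM in the Vec tumours, and its groups overlapped throughout.

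Krt19, a type I keratin without a tail domain, found in simple epithelia and in the follicle bulge, was the exception among the simple keratins. It was 1.66, 1.88, 6.61 and 13.59 TPM in the Cr1l tumours, against 0.30, 0.14 and 0.24 TPM in the Vec tumours. Every Cr1l tumour was above every Vec tumour. Krt19 did not follow the epidermal keratins, with 0.14 TPM in Vec 6, the tumour richest in them, and 6.61 TPM in Cr1l 3, the next richest. The means were 5.94 ± 5.59 TPM (SD, n = 4) in Cr1l tumours and 0.227 ± 0.0808 TPM (SD, n = 3) in Vec tumours. On the log2 scale Krt19 differed by 2.14 (SE 0.60), and limma gave it an adjusted p of 0.224 over all genes, so it did not pass the test. In the authors' deposited DESeq2 table its log2 fold change is 4.74 (SE 0.92) and its adjusted p is 5.6e-05. Only 12 of the 36 keratins have an adjusted p there, so the others could not be called. Krt19 is the 1 of these 12 below 0.05, beside 7.02% of the 18297 genes with an adjusted p. In the limma fit 1 TPM was added to Vec values that were all below 1 TPM, which understates a fold change. Krt19 was highest in Cr1l 4 and Cr1l 3, the tumours that also had the most RNA of fibroblast and dermal genes, whose sum was 743.85, 1174.50, 6261.02 and 5198.55 TPM in the Cr1l tumours, against 1236.38, 463.24 and 150.64 TPM in the Vec tumours. RNA of the mitochondrial genome was also highest in these tumours, at 74568.38, 75529.72, 85012.72 and 116267.09 TPM in the Cr1l tumours, against 44680.44, 72565.91 and 35567.64 TPM in the Vec tumours, with no overlap between the groups. Of its 15 genes limma called 0, and 11 had an unadjusted p under 0.05, beside 15.6% of all genes tested. The part of fibroblast or mitochondrial RNA in the Krt19 difference was not tested. The Merkel cell genes Piezo2, Krt20 and Isl1 summed to 2.22 to 6.16 TPM in Cr1l tumours and 0.68 to 3.04 TPM in Vec tumours. In the Cr1l tumours the sum was nearly all Piezo2, with a mean of 3.66 TPM there and 1.07 TPM in Vec tumours. The others went the opposite way, with means of 0.255 and 0.69 TPM for Krt20 and 0.06 and 0.32 TPM for Isl1 in Cr1l and Vec tumours.

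Krt80, a type II keratin found in many epithelia, had a level unlike that of every other keratin. It was 15.05, 17.10, 14.33 and 18.85 TPM in the Cr1l tumours, against 16.16, 26.20 and 13.43 TPM in the Vec tumours. All 7 tumours expressed it within a narrow range, and it was the most abundant keratin of Cr1l 1, Cr1l 2, Cr1l 4 and Vec 7. The means were 16.3 ± 2.05 TPM (SD, n = 4) in Cr1l tumours and 18.6 ± 6.72 TPM (SD, n = 3) in Vec tumours, and the log2 difference was -0.13 (SE 0.23; limma adjusted p = 0.797). Krt222, a type I keratin-like gene, was 0.08, 0.53, 0.22 and 0.45 TPM in the Cr1l tumours, against 0.04, 0.07 and 0 TPM in the Vec tumours. Its groups did not overlap either, but it was below 1 TPM throughout and was not tested.

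**Figure D3:**
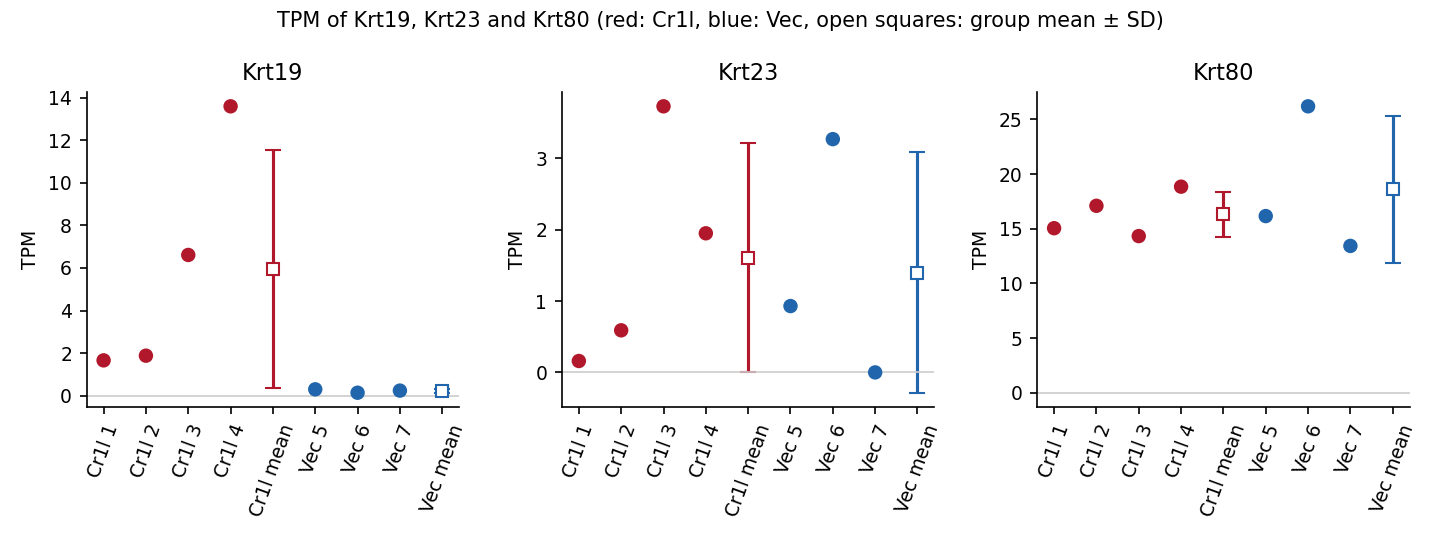
TPM of Krt19, Krt23 and Krt80 in the 4 Cr1l tumours (red, left) and the 3 Vec tumours (blue, right), with open squares for the group mean ± SD on linear axes. Krt19 is above 1 TPM in every Cr1l tumour and at most 0.30 TPM in the Vec tumours, the Krt23 values overlap, and Krt80 lies between 13.43 and 26.20 TPM in all 7.

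No keratin passed the test between the groups. Of the 36, 14 were tested, and 0 were called by limma on log2(TPM + 1) at an adjusted p of 0.05, where 0.0134% of all genes tested were called. At an unadjusted p of 0.05, 2 of the 14 passed, Krt1 and Krt19, beside 15.6% of all genes tested. The 11 tested epidermal keratins and Krt80 had negative fold changes and Krt19 and Krt23 positive ones, with a median of -2.24 over the 14 keratins and 0.05 over all genes tested. The tested keratins include 5, Krt6a, Krt6b, Krt16, Krt17 and Krt79, that reached a mean of 1 TPM through Vec 6 alone, so their lower level in Cr1l tumours is not independent of the filter. Values of 1 tested keratin, Krt19, did not overlap between the groups, being higher in Cr1l tumours, as were 9.29% of all genes tested. Krt19 reached the filter through the Cr1l tumours, with a mean of 0.227 TPM in Vec tumours, and Krt1 through the Vec tumours, with a mean of 0.782 TPM in Cr1l tumours, so their low p-values and the lack of overlap of Krt19 are not independent of the filter. None was lower in every Cr1l tumour than in every Vec tumour, as were 6.67% of all genes tested.

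The largest fold changes carried large errors. By limma, the log2 difference of Krt1 was -3.44 (SE 1.25, adjusted p = 0.273), that of Krt14 -3.34 (SE 1.47, adjusted p = 0.326), that of Krt77 -3.06 (SE 1.41, adjusted p = 0.339), that of Krt10 -3.03 (SE 1.45, adjusted p = 0.353) and that of Krt5 -3.00 (SE 1.61, adjusted p = 0.39). Their size depended on single tumours of both groups. Without Vec 6 the log2 fold change was -1.81 for Krt1, -1.48 for Krt14, -1.63 for Krt77, -1.46 for Krt10 and -1.13 for Krt5, with adjusted p-values of 0.497 to 0.711 by limma. Leaving out Vec 7, which had low levels, moved them the other way, to -4.68 for Krt1, -4.65 for Krt14, -4.42 for Krt77, -4.47 for Krt10 and -4.49 for Krt5, and leaving out Cr1l 3 gave -4.08 to -3.90 for the same genes. None of them was called in these fits. Krt15 changed sign without Vec 6, with a log2 fold change of 0.13 in place of -1.44, as did Krt80, with 0.13 in place of -0.13. Krt19 kept 2.09 without Vec 6 (adjusted p = 0.484). Of the 36 keratins, 10 have a fold change but no p-value in the authors' deposited table, namely Krt75 and 9 epidermal ones, and Krt10 stands there at -4.09 on the log2 scale (adjusted p = 0.134).

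**Figure D4:**
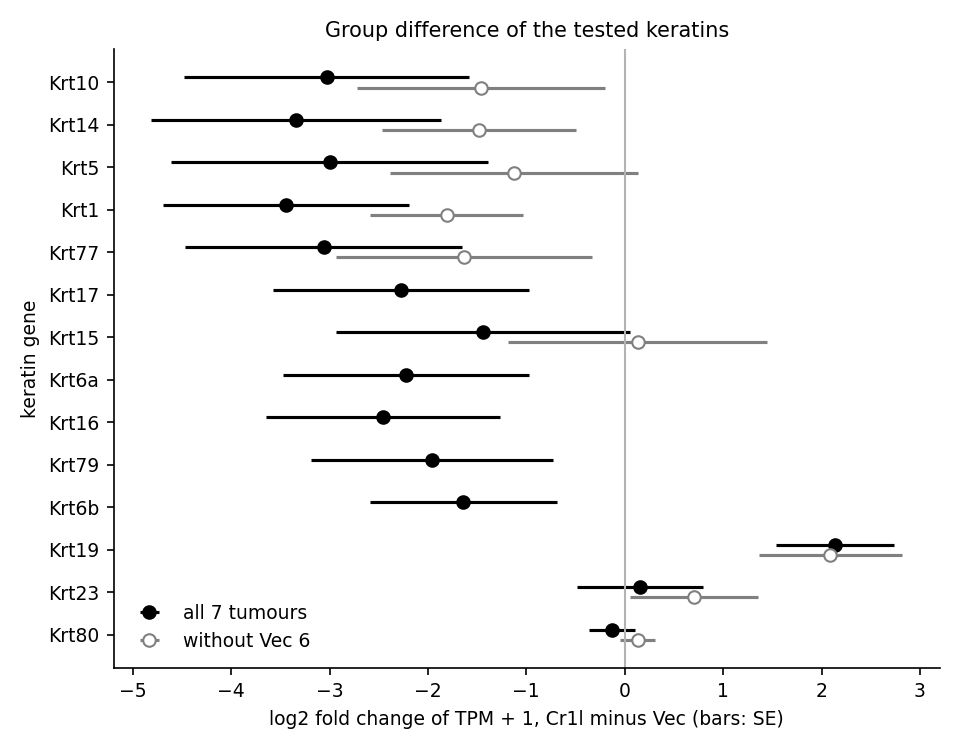
Log2 fold change of TPM + 1, Cr1l minus Vec, of the 14 tested keratins with its SE, for all 7 tumours (filled) and without Vec 6 (open, for the 9 keratins that still averaged 1 TPM). The epidermal keratins lie left of 0 and move towards it without Vec 6, where Krt15 is at 0.13, while Krt19 is at 2.09.

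Summed by class, on the log2(summed TPM + 1) scale, epidermal keratins averaged 2.37 ± 2.71 (SD, n = 4) in Cr1l tumours and 6.63 ± 3.47 (SD, n = 3) in Vec tumours, a difference of -4.26. The groups overlapped, with Cr1l 3 above Vec 5 and Vec 7, and the difference was -2.42 without Vec 6, -5.86 without Vec 7 and -5.59 without Cr1l 3. Hair keratins averaged 1.06 ± 0.77 in Cr1l tumours and 0.87 ± 0.89 in Vec tumours, a difference of 0.19. Simple keratins averaged 2.80 ± 1.26 in Cr1l tumours and 1.62 ± 1.05 in Vec tumours, a difference of 1.18 that came mainly from Krt19. Sums over chosen genes were not tested.

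Other genes of the keratinocyte programme had the same leading tumour. Of 33 genes of the cornified envelope and terminal differentiation, the outer shell of dead epidermal cells, 30 were highest in Vec 6, with a list sum of 82.68, 85.83, 174.48 and 124.03 TPM in the Cr1l tumours, against 124.84, 1131.44 and 67.80 TPM in the Vec tumours. Krtdap, a secreted differentiation-linked protein, was 0, 0, 23.29 and 5.57 TPM in the Cr1l tumours, against 16.58, 411.05 and 2.13 TPM in the Vec tumours. Of 21 junction and basement membrane genes 18 were highest in Vec 6, with a list sum of 489.37 TPM there and 123.02 to 177.20 TPM in the other tumours. Perp, a desmosome protein, was 117.78 TPM in Vec 6 and 1.33 to 6.50 TPM in the other tumours. Dst, the most abundant gene of the list, was not highest in Vec 6, with 95.20 TPM there and 124.11 TPM in Vec 5. Nor was Itga6, with 21.03 TPM in Vec 6 and 34.18 TPM in Cr1l 3. Of 15 keratinocyte transcription factors and identity genes 14 were highest in Vec 6. Their list sum was 1775.54 TPM there and 732.52 to 1235.26 TPM in the other tumours. Gjb2 was the exception, with 252.59 TPM in Vec 6 and 392.41 and 438.36 TPM in Vec 5 and Vec 7. Fabp5 was 658.64 TPM in Vec 6 and 367.85 to 630.57 TPM in the other tumours. Much of the list sum thus came from these genes, which were abundant in every tumour. Lgals7, the epidermal galectin-7, was 73.75, 73.68, 57.23 and 65.55 TPM in the Cr1l tumours, against 140.27, 630.59 and 222.01 TPM in the Vec tumours, and so had a high level also in the tumours with the least epidermal keratin RNA. Of these lists 18, 14 and 10 genes were tested by limma and 0 were called. At an unadjusted p of 0.05, 1, 0 and 3 passed, beside 15.6% of all genes tested.

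Markers of other tissues next to a tumour under the skin moved with the epidermal keratins to differing degrees. All 15 skeletal muscle genes were highest in Vec 6, with a sum of 31.97, 18.25, 467.55 and 11.42 TPM in the Cr1l tumours, against 530.05, 2635.22 and 108.33 TPM in the Vec tumours. Acta1, skeletal muscle actin, was 0.47, 1.37, 94.29 and 0.12 TPM in the Cr1l tumours, against 129.86, 642.85 and 25.04 TPM in the Vec tumours. The same 4 tumours, Cr1l 3 and the 3 Vec tumours, were thus those with the most muscle RNA and the most epidermal keratin RNA. Limma called 0 of the 15 muscle genes, and 8 had an unadjusted p under 0.05, beside 15.6% of all genes tested. Of the 9 sebaceous gland genes 8 were highest in Vec 6, and the list sum was 5.14, 4.27, 8.89 and 5.61 TPM in the Cr1l tumours, against 11.37, 82.35 and 5.95 TPM in the Vec tumours. Krt79, already counted among the epidermal keratins, is on this list and gave 49.54 TPM of the sum in Vec 6. The sebaceous sum is therefore not independent of the epidermal keratin sum. Adipocyte genes had another order, with 42.19, 64.91, 444.76 and 250.13 TPM in the Cr1l tumours, against 179.60, 322.01 and 59.78 TPM in the Vec tumours, and Cr1l 3 led. None of the 10 fibroblast and dermal genes and none of the 10 melanoma identity genes was highest in Vec 6. The globin sum was 105.59 to 387.30 TPM in the Cr1l tumours and 415.24, 41197.23 and 9667.12 TPM in Vec 5 to Vec 7. Red-cell RNA was thus highest in Vec 6 but also high in Vec 7, which had 9.69 TPM of epidermal keratins. The part of skin, muscle or blood RNA in the keratin values of each tumour was not tested.

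**Figure D5:**
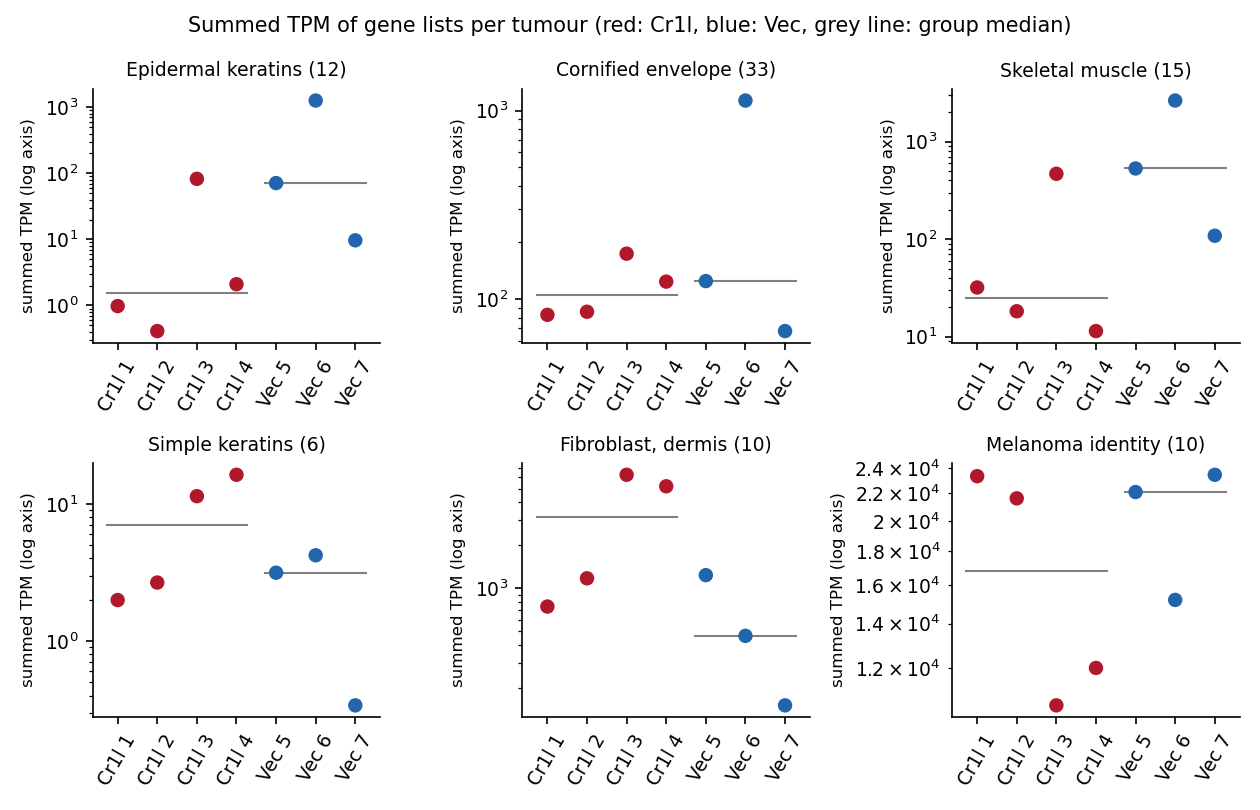
Summed TPM of 6 gene lists in each tumour on log axes, with Cr1l tumours in red on the left, Vec tumours in blue on the right and a grey line at each group's median. Epidermal keratins, cornified envelope genes and skeletal muscle genes peak in Vec 6, at 1263.82, 1131.44 and 2635.22 TPM, whereas simple keratins and fibroblast genes are highest in Cr1l 4 or Cr1l 3.

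General epithelial genes ranked the tumours as the epidermal keratin sum did, while the main filament gene of the tumour cells did not. The 17 genes of general and simple epithelium summed to 9.16, 6.95, 40.33 and 11.92 TPM in the Cr1l tumours, against 17.36, 105.86 and 15.63 TPM in the Vec tumours, and 11 of them were highest in Vec 6. Vim, the vimentin of mesenchymal and melanoma cells, was 2230.22, 2222.79, 2205.66 and 2404.58 TPM in the Cr1l tumours, against 2877.97, 2224.80 and 2906.86 TPM in the Vec tumours. Vim alone was thus more abundant than the sum of all 36 keratins in every tumour, which was 18.75, 21.23, 110.07 and 41.03 TPM in the Cr1l tumours, against 90.98, 1298.13 and 23.82 TPM in the Vec tumours. The 6 regulators of the epithelial to mesenchymal transition summed to 68.50, 76.97, 121.52 and 105.76 TPM in the Cr1l tumours, against 77.49, 64.87 and 58.81 TPM in the Vec tumours. Limma called 0 of these 6, and 2 had an unadjusted p under 0.05, beside 15.6% of all genes tested. Mesothelial genes were 30.10 to 48.96 TPM in Cr1l tumours and 30.67 to 75.79 TPM in Vec tumours, nearly all of it Gpm6a, with Msln, which defines mesothelium, at 0 TPM in every Cr1l tumour and at most 0.22 TPM in Vec tumours.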

How the data were processed

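RNA of 7 tumours was measured from poly-A selected libraries without strand, per the labels' protocols. The deposited expression table holds log2(TPM + 1) per gene symbol; undoing the logarithm gives TPM sums of 993520 to 996031 per tumour. The submitters' processing notes name RSEM, DESeq2 and the build mm39, without versions; no aligner, annotation or read number is stated. A second table, the authors' deposited DESeq2 result, has per the file headers the signal of each gene (its normalized count averaged over tumours), a log2 fold change and SE, a Wald score, and raw and adjusted p-values. Its numerator is not named and was read as Cr1l, since Cr1l itself is positive and 13473 of 14280 genes have the sign of the TPM fold change. Its identifiers were matched to symbols through a mouse gene name table (27182 of 28369). The antigen receptor repertoire table was not used.

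The 14954 genes averaging 1 TPM or more went into limma (3.58.1, R 4.3.3) as log2(TPM + 1), with group as the single term, a variance trend, two-sided p-values and Benjamini-Hochberg adjustment over all genes tested, threshold 0.05. Adding 1 TPM understates changes of low genes. The procedure was tested on simulated data. Every keratin with 1 TPM in a tumour was named, and of each marker list up to 4 of the most abundant genes. The members, classes and lists were chosen with earlier results of these data known, and the ratio of Krt15 to Krt14, Krt7, Krt222, Isl1, Msln and the globin and keratin-associated sums were chosen after their values were seen. Shared 31-base windows and exon overlaps were computed from GENCODE M21 and promoters read from RefSeq (GRCm38.p6); 22 keratins had a promoter entry. Alternatives were another pseudocount, filter, scaling, variance model, class assignment and leaving out tumours.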

Additional observations from a re-analysis of the deposited data

Results flagged for a closer look

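In the group of 4 Cr1l tumours, 22 values (19 keratins and 3 class sums) were examined for 1 tumour lying far from the other 3. The rule was Dixon's gap-over-range ratio at its critical value for 4 samples, and 13 passed. Chance passes it in about 5% of groups of normally distributed values, a rate that does not hold for TPM with a floor at 0. Where 3 tumours are listed at 0, any level in the remaining tumour passes. This was so for Krt5, Krt1, Krt77, Krt17, Krt6a, Krt79 and Krt78. No chance rate is known for such values, so whether 13 is more than chance gives cannot be said. The group of 3 Vec tumours is too small for this rule. In 12 of the 13 the far tumour was Cr1l 3. Its values were 21.20 TPM for Krt10, 7.19 for Krt14, 12.71 for Krt5, 3.13 for Krt1, 12.66 for Krt77, 2.63 for Krt17, 19.91 for Krt15, 0.67 for Krt6a, 2.37 for Krt79, 0.09 for Krt78 and 0.26 for Krt75, and 82.56 TPM for the epidermal sum, whose next Cr1l tumour had 2.10 TPM. These genes share 1 tumour and are not independent of each other. The remaining one was Krt83, a hair keratin, with 1.49 TPM in Cr1l 4 and 0.18 TPM in the next Cr1l tumour.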

How the results depend on the processing

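The count of keratins called was 0 in all 14 alternative settings. The count over all genes was 2 as reported, 6 with a pseudocount of 0.1 TPM, 10 with median-of-ratios scaling, 13 without a variance trend, 14 with weights per tumour, 0 without a filter on low values and 0 to 8 when 1 tumour was left out. The weights were estimated in steps that ended before convergence. Of 187 alternative fold changes of tested keratins, 182 kept their direction, all uncalled, and 5 changed sign: Krt15 (0.13) and Krt80 (0.13) without Vec 6, Krt80 (0.01) without Vec 6 and Vec 7, and Krt23 without Cr1l 3 (-0.20) or Vec 7 (-0.35); the cause was not tested. Krt19 ranged from 1.66 to 3.73, with adjusted p-values of 0.13 to 0.782 by limma. Without Vec 6, Krt6a, Krt6b, Krt16, Krt17 and Krt79 gave no value because they fell below the filter. The difference of the hair sum was -2.02 in place of 0.19 when Krt6a, Krt15, Krt17 and Krt79, which are also follicle keratins, were counted as hair. Leaving out 1 tumour gave -2.53 to 0.13 for Krt15, -0.35 to 0.70 for Krt23, -0.33 to 0.13 for Krt80, -5.86 to -2.42 for the epidermal sum, -0.16 to 0.71 for the hair sum and 0.58 to 1.59 for the simple sum. Where 1 Vec tumour was kept, it was assumed to vary like the Cr1l tumours. TPM keeps no depth, so counting error is unknown. No paired analysis was possible because the tumours are numbered 1 to 7 and no number occurs in both groups.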

Other observations

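Milk protein genes had yet another order of tumours than the keratins. The 8 genes of the list summed to 1.63, 0, 12.56 and 4.22 TPM in the Cr1l tumours, against 3.62, 0.45 and 19.43 TPM in the Vec tumours. Wap, whey acidic protein, was 0.28, 0, 2.67 and 0.81 TPM in the Cr1l tumours, against 1.62, 0 and 5.83 TPM in the Vec tumours, so it was highest in Vec 7 and listed at 0 in Vec 6, the tumour with the most epidermal keratin. Of the 3 genes of the list that were tested by limma, 0 were called. An unadjusted p under 0.05 was reached by 0 of them, beside 15.6% of all genes tested.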
